A study of Homo sapiens with 36 samples.

Results

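Arsenite and hydrogen peroxide (H2O2) were compared directly in *TXNL1* KO HEK 293T cells that carried an empty vector, using 6 of the 36 messenger RNA libraries of the series: 3 from cells given arsenite and 3 from cells given H2O2. The 6 libraries were taken by their labels and not by a measured value. Earlier results of these data were known when these libraries and the gene lists used below were chosen. The 3 untreated vector libraries served only as a reference level. HEK 293T is an established human embryonic kidney line, and TXNL1 is a thioredoxin-domain protein that binds the proteasome. Per the study's methods, cells received 100 µM arsenite or 600 µM H2O2 for 6 h, while the labels name DMSO for the untreated cells. All 9 libraries share the KO, which was made with CRISPR and grown out from a single sorted cell, and the vector was delivered by lentivirus, so 1 clone stands for the genotype. The same clone complemented with WT TXNL1, with D162R R234D TXNL1 (altered to lose proteasome binding) or with SxxS TXNL1 (its active-site cysteines replaced) received the same oxidants and was used for comparison.

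Both agents are oxidants, but cells meet them differently. H2O2 is removed by catalase, peroxiredoxins and glutathione peroxidases and oxidises single reactive cysteines, iron and DNA bases. Arsenite is a trivalent metalloid that binds pairs of neighbouring thiols and stays in the cell until it is conjugated and exported. Arsenite is a classical inducer of heat shock factor HSF1, of the oxidant-responsive factor NRF2 and of the kinases that phosphorylate eIF2α and so start the integrated stress response with its factor ATF4. H2O2 is a classical activator of DNA damage signalling through p53.

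The libraries held 45758737 to 127848785 counts with arsenite, 46490964 to 52146237 with H2O2 and 53581560 to 59983836 without treatment. Levels are given as CPM, the usual measure of a gene's counts relative to the scaled library size. They are shares of a library, so a change in the total mRNA of a cell would not show. In bulk RNA fewer cells expressing a gene and less RNA per cell cannot be told apart. Of 13 HEK293 markers 9 were at 1 CPM or more in untreated cells. Their summed level was 679 to 707 CPM with arsenite, 760 to 801 CPM with H2O2 and 686 to 697 CPM without treatment. Blood, liver and endothelial markers summed to at most 3.25 CPM in every library. Fibroblast and muscle markers summed to 16.3 to 22.1 CPM with arsenite, 17.9 to 31.9 CPM with H2O2 and 15.8 to 21.9 CPM untreated. Of these 7 markers 3 were at 1 CPM or more in untreated cells, *COL1A1* the highest at a mean of 14.6 CPM. 11 markers of intestinal epithelium, a list written after the data were seen, summed to 1185 reads in H2O2 replicate 2, 121 in H2O2 replicate 3 and 0 in H2O2 replicate 1. The arsenite libraries held 9 to 12 such reads. None of those markers was among the 22486 genes of the main test, and several were tested with the genes too low in untreated cells, described further on. Their part in the results was not tested. *TXNL1* itself (GRCh38 chr18:56597209-56651600), the targeted gene, was still transcribed in vector cells at 71.5, 68.3 and 68.3 CPM with arsenite, 31.8, 31.2 and 32.6 CPM with H2O2 and 32.3, 32.1 and 29 CPM untreated. Scaled over all 36 libraries instead, its level in untreated cells averaged 30.6 CPM ± 1.77 (SD, n = 3) with the vector and 53.4 to 62.9 CPM in the complemented lines, whose reads include the introduced cDNA.

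At the doses used and after 6 h, the oxidants left very different messenger RNA populations. Other doses and times were not tested, so dose, timing and kind of oxidant cannot be told apart. Of 22486 genes tested with edgeR, 13433 (59.7%) passed an adjusted p of 0.05: 6908 (30.7%) were higher with arsenite and 6525 (29.0%) higher with H2O2. A difference of 2-fold or more was held by 3413 of these (15.2%), 1779 higher with arsenite (7.91%) and 1634 higher with H2O2 (7.27%), and 4-fold or more by 511 (2.27%) and 215 (0.956%). The 3 arsenite and 3 H2O2 libraries did not overlap for 14423 genes (64.1%). The biological coefficient of variation was 5.02%, so small differences passed the test. The labels do not say whether the 3 replicates were separate cultures, so the p-values measure the spread between these libraries only. Without H2O2 replicate 2, the library with the intestinal markers, 12676 genes were called, 6469 higher with arsenite and 6207 higher with H2O2.

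Set against the untreated level, most of the separation at these doses lay on the arsenite side. Among the 1779 genes called at 2-fold or more higher with arsenite, the arsenite mean was the one farther from untreated in 1507 (84.7%). Their median log2 ratio to untreated was 1.27 for arsenite and -0.22 for H2O2. Among the 1634 higher with H2O2, the arsenite mean was farther in 1563 (95.7%), with medians of -1.23 and 0.13. A gene higher with H2O2 was therefore mostly one that lay farther from untreated with arsenite than with H2O2. In 518 of these 1634 (31.7%) the H2O2 mean lay within the range of the untreated libraries and the arsenite mean outside it. In 656 of the first set (36.9%) and 885 of the second (54.2%) the oxidants' means lay on opposite sides of the range of the 3 untreated libraries. Without the 2-fold minimum these shares were 37.7% and 46.4% of the called genes, and the arsenite mean was farther in 82.2% and 90.3%. Choosing genes by a gap between the oxidants favours opposite sides, and the shares over all tested genes were not computed. These are descriptions of levels, and no test against untreated cells was made.

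**Figure D1:**
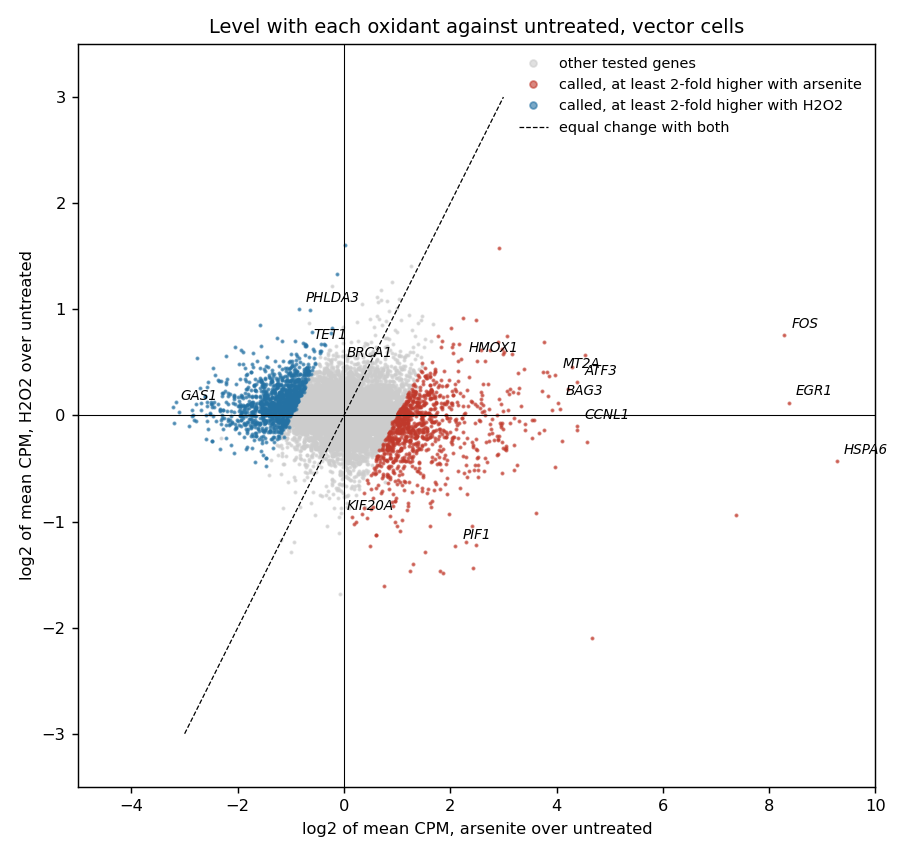
Each point is 1 of 16207 genes with at least 1 CPM under either oxidant. The x axis gives the log2 ratio of the mean CPM with arsenite to untreated (3 libraries each), and the y axis the same ratio for H2O2 on a stretched scale. Colour marks genes called at 2-fold or more in each direction and the dashed line equal change. The coloured genes spread along the x axis, from *GAS1* on the left to *HSPA6* on the right, and far less along the y axis. *PHLDA3*, *TET1* and *BRCA1* lie above 0 and *PIF1* and *KIF20A* below.

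The largest difference belonged to *HSPA6* (chr1:161524540-161526894 on GRCh38, a single-exon gene), the strictly inducible member of the HSP70 chaperone family. It stood at 885.7, 819.5 and 853.5 CPM in the 3 arsenite libraries, at 1.03, 1.02 and 1.02 CPM with H2O2 and at 1.14, 1.47 and 1.53 CPM untreated. Every arsenite library was far above every other library, an 834-fold difference between the oxidants. The log2 fold change, arsenite over H2O2, was 9.70 ± 0.07 (SE, as after every ± sign below, n = 3 per group, adjusted p = 1.08e-29). *BAG3* (chr10:119651380-119677819), a co-chaperone that hands HSP70 clients to autophagy, was at 1002.4, 997.6 and 948.9 CPM with arsenite against 64.6, 64.1 and 66.8 CPM with H2O2 and 57.9, 59.9 and 62.2 CPM untreated. For *BAG3* this was a log2 fold change of 3.91 ± 0.04 (adjusted p = 1.79e-26). *DNAJB1* (chr19:14514769-14560391), the HSP40 partner that drives the HSP70 ATPase, reached 4433.9, 4234.5 and 4288.5 CPM with arsenite and 293.3, 292.3 and 316.8 CPM with H2O2, where untreated cells had 338.4, 324.7 and 355.3 CPM. *DNAJB1* differed by 3.84 ± 0.04 on the log2 scale (adjusted p = 3.61e-26). For these 3 genes the H2O2 libraries stayed within a narrow band near the untreated level.

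List counts here and below stand against the shares over all tested genes. Those were 30.7% higher with arsenite and 29.0% with H2O2, and 7.91% and 7.27% at 2-fold or more. Of 36 genes on a list of chaperones and heat shock factors, not all of them cytosolic, 35 were tested. Higher levels with arsenite were called for 25, higher levels with H2O2 for 3, and 7 were not called, with a median log2 fold change of 0.53 against 0.04 over all tested genes. The differences of 2-fold or more all favoured arsenite and numbered 7: the 3 genes above, *CLU* (1.61), a secreted chaperone, *SERPINH1* (1.57), the collagen chaperone of the endoplasmic reticulum, *HSPH1* (1.5), a nucleotide exchange factor for HSP70, and *DNAJB6* (1.27). The abundant HSP90 genes differed less, with *HSP90AB1* at 0.82 ± 0.03 and *HSP90AA1* at 0.53 ± 0.03 on the log2 scale. *HSPA8*, the constitutive HSP70, was higher with H2O2 at -0.70 ± 0.03 (adjusted p = 6.13e-16). The inducible pair *HSPA1A* and *HSPA1B* behaved unlike *HSPA6*: *HSPA1B* was at 1467.6, 1400.6 and 1394.4 CPM with arsenite, 1690.2, 1574.8 and 1895.3 CPM with H2O2 and 1624.4, 1437 and 1594.3 CPM untreated. In the same order *HSPA1A* was at 378, 354.6 and 371.5 CPM, 254.6, 220.1 and 414.6 CPM and 151.8, 274.5 and 304.1 CPM. The first was lower with arsenite by -0.28 ± 0.07 (adjusted p = 0.00719) and the second, whose groups overlapped, was not called at 0.31 ± 0.33 (adjusted p = 0.462). Without arsenite replicate 2 the *HSPA1B* call was lost (adjusted p = 0.0529). These 2 genes are nearly identical copies whose reads the counting could have split or lost, so both values are uncertain.

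A heat shock element, 3 units of GAA in alternating orientation, lay in the promoters of *HSPA6* and *HSP90AA1*. The sites are shown because these genes stand at the top and in the middle of the chaperone group. *BAG3* and *DNAJB1*, whose promoters were also searched, held no exact match in the 250 bases before a listed start. Looser or more distant elements were not searched, so this does not show that these genes lack the element. Sequences are from RefSeq on GRCh38.p14, printed 5′ to 3′ on the strand of the gene, with the element in capitals:
HSPA6 (chr1:161524458-161524486, plus strand, 82 to 54 bases before the start): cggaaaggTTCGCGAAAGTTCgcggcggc
HSP90AA1 (chr14:102087112-102087140, minus strand, 96 to 68 bases before the start): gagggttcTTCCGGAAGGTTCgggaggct
The search used the letters GAANNTTCNNGAA and TTCNNGAANNTTC in the 250 bases before each start, and a match was held by 0.555% of the 27195 genes in the RefSeq table and 0.458% of the tested genes found in it. For the protein-coding genes tested, 11578 of 14804 (78.2%) had a promoter in the table and the rest had none. Among those with a promoter, 25 of 4128 called higher with arsenite (0.606%) and 14 of 4168 called higher with H2O2 (0.336%) held a match. No test was made, and shares by direction are not read as a difference for any of the elements. A match here and below is a description of these letters only.

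Immediate early genes, which respond to a stimulus without new protein synthesis and many of which encode transcription factors, separated the oxidants in both directions. *EGR1* (chr5:138465479-138469303), a zinc finger factor downstream of MAP kinases, stood at 909.9, 892.4 and 811.6 CPM with arsenite, 2.43, 3.54 and 2.59 CPM with H2O2 and 1.68, 3.3 and 2.91 CPM untreated. For *EGR1* this was a log2 fold change of 8.26 ± 0.18 (adjusted p = 1.7e-08). *FOS* (chr14:75278826-75282230), a subunit of AP-1, was at 233.2, 226.1 and 227.3 CPM with arsenite against 1.13, 1.56 and 1.04 CPM with H2O2 and 0.62, 0.94 and 0.633 CPM untreated. *FOS* differed by 7.53 ± 0.08 on the log2 scale (adjusted p = 7.21e-26). With H2O2 all 3 *FOS* libraries were above all 3 untreated ones, yet below the lowest arsenite library by far. *JUN*, its dimer partner, was at 1189, 1089.3 and 1057.3 CPM with arsenite and 142.4, 120.4 and 137.2 CPM with H2O2 (log2 fold change 3.06 ± 0.07, adjusted p = 1.1e-11). *FOSB* stood at 42.2, 39.6 and 39.5 CPM with arsenite and 2.7, 2.51 and 2.54 CPM with H2O2 (log2 fold change 3.97 ± 0.08, adjusted p = 4.55e-21).

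Within the list of 29 tested immediate early genes, 15 were higher with arsenite and 12 with H2O2, 13 and 6 of them by 2-fold or more. Over all tested genes the shares were 30.7% and 29.0%, and 7.91% and 7.27% by 2-fold or more. *EGR3* (2.83), *ARC* (2.33), *ZFP36* (1.95) and *IER2* (1.39) joined the arsenite side. *MYC*, a driver of growth and ribosome production, led the other side: its levels were 29.5, 28.2 and 26.2 CPM with arsenite, 194.3, 200.5 and 195.9 CPM with H2O2 and 180.8, 180.4 and 181.9 CPM untreated. For *MYC* this was a log2 fold change of -2.82 ± 0.04 (adjusted p = 1.63e-23). *IER5* (-2.17), *KLF6* (-1.68), *KLF2* (-1.13), *IER3* (-1.03) and *JUNB* (-1.03) were likewise higher with H2O2. The MAP kinase phosphatases, feedback enzymes that dephosphorylate MAP kinases, also split. *DUSP8* was at 52.2, 55.3 and 48.1 CPM with arsenite and 4.73, 5.38 and 5.4 CPM with H2O2 (log2 fold change 3.33 ± 0.08, adjusted p = 6.54e-20). *DUSP1* (2.58) and *DUSP16* (2.26), which act mainly on JNK and p38, were on the same side. *DUSP7*, which acts mainly on ERK, was at 8.2, 8.68 and 8.66 CPM with arsenite against 44.7, 44 and 44.4 CPM with H2O2 and 41.5, 45.4 and 41.3 CPM untreated. For *DUSP7* this was a log2 fold change of -2.37 ± 0.06 (adjusted p = 6.09e-20). *DUSP2* (-2.09) and the feedback inhibitor *SPRY2* (-1.36) were also higher with H2O2. Over the 13 tested phosphatases and feedback genes 7 were higher with arsenite and 4 with H2O2, against 30.7% and 29.0% of all tested genes.

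**Figure D2:**
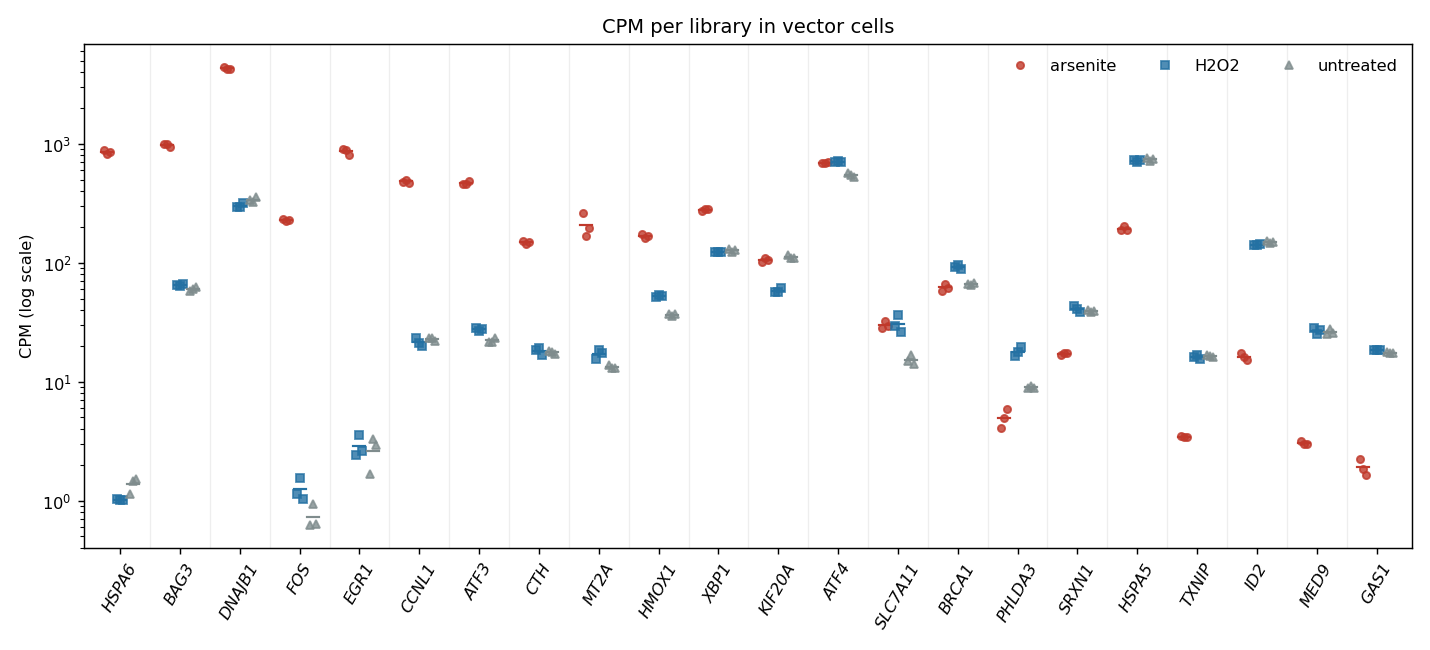
CPM on a log scale for 22 genes in the 9 vector libraries, 1 point per library (circles arsenite, squares H2O2, triangles untreated) and a short line at each group mean. From *HSPA6* to *XBP1* the arsenite libraries sit above both other groups, and *KIF20A* is low with H2O2 only. *ATF4* and *SLC7A11* lie above untreated with both oxidants, *BRCA1* and *PHLDA3* are highest with H2O2. From *SRXN1* to *GAS1* the arsenite libraries lie below while H2O2 and untreated libraries lie close together.

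Among genes of the integrated stress response, the mRNA of *ATF4*, whose protein level is set mainly by translation, differed little between the oxidants, whereas many of its targets differed by 2-fold or more. *ATF4* stood at 685.9, 696.4 and 700.8 CPM with arsenite, 699.2, 718.8 and 705.1 CPM with H2O2 and 566.5, 549.3 and 525.9 CPM untreated. All 6 oxidant libraries were above the 3 untreated ones, and the oxidants differed by -0.03 ± 0.03 on the log2 scale (adjusted p = 0.484). With GC or length offsets that difference was -0.07 to -0.11 and passed the test, at a size that remained small. *ATF3* (chr1:212565334-212620777), a repressor induced by ATF4, was at 457.1, 458.4 and 482.4 CPM with arsenite against 28.1, 26.7 and 27.8 CPM with H2O2 and 21.7, 21.6 and 23.5 CPM untreated. *ATF3* differed by 4.08 ± 0.04 on the log2 scale (adjusted p = 3.39e-26). *DDIT3*, which encodes the pro-apoptotic factor CHOP, was at 41.7, 41.7 and 44.4 CPM with arsenite and 7.51, 7.26 and 6.82 CPM with H2O2, with untreated cells at 7.45, 7.04 and 6.71 CPM. For *DDIT3* this was a log2 fold change of 2.57 ± 0.07 (adjusted p = 2.75e-19). *SESN2*, an inhibitor of mTORC1 signalling, stood at 604.6, 591.1 and 562.1 CPM against 74.1, 74.8 and 77.9 CPM with H2O2 and 56.3, 56.8 and 54.5 CPM untreated. *SESN2* differed by 2.95 ± 0.04 on the log2 scale (adjusted p = 1.38e-24). In *SESN2* the H2O2 libraries were above the untreated ones, though by much less than the arsenite libraries.

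Of 36 tested members of the list, 23 were higher with arsenite and 6 with H2O2, with a median log2 fold change of 0.40, and 10 against 1 differed by 2-fold or more. *CTH*, the enzyme that releases cysteine from cystathionine, was at 151.1, 144.3 and 149.5 CPM with arsenite and 18.6, 19.1 and 16.9 CPM with H2O2 (log2 fold change 3.02 ± 0.05, adjusted p = 8.08e-23). *PPP1R15A*, whose product GADD34 reverses eIF2α phosphorylation, was at 169.7, 178.7 and 167.9 and 24.2, 22.4 and 23.9 CPM (log2 fold change 2.87 ± 0.05, adjusted p = 8.47e-23). *VEGFA* (2.85), *SLC3A2* (2.15), *DDIT4* (1.98), *CHAC1* (1.56), which degrades glutathione, and *CARS1* (1.37) completed the arsenite side at 2-fold. Enzymes of amino acid synthesis differed less. *ASNS* was at 303.6, 302 and 307.9 CPM with arsenite, 209.4, 202.5 and 211.6 CPM with H2O2 and 176, 168.6 and 171 CPM untreated. For *ASNS* this was a log2 fold change of 0.55 ± 0.03 (adjusted p = 1.2e-12). *PSAT1* differed by 0.40 ± 0.03 on the same scale. *ATF5*, itself translated through the same route, was higher with H2O2 (log2 fold change -1.44 ± 0.05, adjusted p = 1.36e-16).

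C/EBP-ATF elements (searched as TGATGNAA and its reverse complement TTNCATCA) and cyclic AMP response elements (TGACGTCA) bind ATF and AP-1 family factors. The matches in 6 of the genes that stood higher with arsenite are printed with the element in capitals:
ATF3 (chr1:212565208-212565231, plus strand): ggtcaggaTGATGGAAggctgtca
CHAC1 (chr15:40953254-40953277, plus strand): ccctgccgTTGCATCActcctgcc
ASNS (chr7:97872461-97872484, minus strand): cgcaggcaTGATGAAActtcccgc
CCNL1 (chr3:157160218-157160241, minus strand): cggcgtggTGACGTCAgggcggaa
PPP1R15A (chr19:48872355-48872378, plus strand): tctcttcgTGACGTCAgcacgccg
DUSP8 (chr11:1572330-1572397, minus strand): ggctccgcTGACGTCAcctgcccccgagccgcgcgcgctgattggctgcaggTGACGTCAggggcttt
*ATF3*, *CHAC1* and *ASNS* held the C/EBP-ATF letters, and the other genes held the cyclic AMP response letters. The first were in the promoters of 3.88% of all genes in the table and 2.46% of the tested genes found in it, and the second in 2.04% and 3.31%. *DUSP8* held the latter at 2 places. *GPX8*, which was higher with H2O2, also held the C/EBP-ATF letters, while *DDIT3*, *CTH* and *PPP1R15A* did not hold them. *CCNL1*, the cyclin L1 gene tied to RNA splicing, belonged to no list and stood at 480.1, 498.2 and 469.6 CPM with arsenite, 23.3, 21.1 and 19.8 CPM with H2O2 and 23.5, 23.4 and 22 CPM untreated. *CCNL1* differed by 4.49 ± 0.05 on the log2 scale (adjusted p = 1.19e-25).

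Metal-responsive genes separated the oxidants strongly. Metallothioneins are small cysteine-rich proteins that bind zinc and other thiophilic metals, and they are transcribed by the zinc-sensing factor MTF1. *MT2A* (chr16:56608584-56609497) was at 262.5, 167.7 and 195.5 CPM with arsenite, 15.5, 18.6 and 17.4 CPM with H2O2 and 13.8, 12.9 and 13 CPM untreated. For *MT2A* this was a log2 fold change of 3.60 ± 0.19 (adjusted p = 3.83e-06). Its H2O2 libraries lay just above the untreated ones. *MT1X* was at 152.2, 125.2 and 141 CPM with arsenite against 18.3, 16.7 and 18.8 CPM with H2O2 and 15, 15.5 and 15.7 CPM untreated. *MT1X* differed by 2.95 ± 0.06 on the log2 scale (adjusted p = 4.83e-19). *SLC30A1*, the zinc exporter of the plasma membrane, was at 104.1, 112.3 and 107.5 CPM with arsenite and 46.1, 41.7 and 38.9 CPM with H2O2 (log2 fold change 1.36 ± 0.05, adjusted p = 6.54e-16). *ABCC2*, a pump for glutathione conjugates including those of arsenic, was at 2.5, 2.1 and 2.41 CPM and 0.432, 0.648 and 0.192 CPM (log2 fold change 2.47 ± 0.39, adjusted p = 0.000159). All 10 tested members of the list were called, 6 higher with arsenite, 4 of them by 2-fold or more, and 4 higher with H2O2 by less: *SLC30A5* (-0.68), *MTF1* itself (-0.31), *ABCC4* (-0.25) and *SLC39A10* (-0.17). Of all tested genes 59.7% were called. *MT1A*, *MT1B*, *MT1E*, *MT1G*, *MT1H* and *MT1M* were too low in untreated cells to be tested, and the metallothionein genes resemble each other, so reads may be shared between them.

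The metal response element was searched as TGCNCNC and its reverse complement GNGNGCA. These letters are loose: 53.1% of all genes in the table and 64.2% of the tested genes found in it held at least 1 match. *MT2A* held 7 and *MT1X* 4 in 250 bases. Genes higher with H2O2 also held several, such as *INSIG1* with 4 and *PCNA* with 6 over its 2 listed starts. The metallothionein promoters are shown for the place of the letters, with each match in capitals:
MT2A (chr16:56608334-56608583, plus strand, the 250 bases before the start): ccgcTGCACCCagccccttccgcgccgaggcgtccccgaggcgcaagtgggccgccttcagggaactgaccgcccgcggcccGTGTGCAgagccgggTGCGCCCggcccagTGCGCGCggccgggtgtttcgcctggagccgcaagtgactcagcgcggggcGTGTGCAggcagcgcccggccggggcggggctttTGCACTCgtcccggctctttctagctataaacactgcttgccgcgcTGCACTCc
MT1X (chr16:56682312-56682431, plus strand, 158 to 39 bases before the start): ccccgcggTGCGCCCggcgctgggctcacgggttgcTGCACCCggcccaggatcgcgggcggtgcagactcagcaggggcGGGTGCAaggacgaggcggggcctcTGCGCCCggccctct

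Targets of NRF2, the factor set free when cysteines of KEAP1 are modified, did not favour either oxidant as a group. Of 27 tested, 11 were higher with arsenite, 9 higher with H2O2 and 7 not called, with a median log2 fold change of 0.01. *HMOX1* (chr22:35380361-35394214), the haem-degrading enzyme, was at 175.2, 161.9 and 169.4 CPM with arsenite, 51.7, 53.6 and 52.8 CPM with H2O2 and 36.9, 35.6 and 36.8 CPM untreated. For *HMOX1* this was a log2 fold change of 1.68 ± 0.04 (adjusted p = 9.35e-20). All 3 H2O2 libraries were above the untreated ones. *MAFF*, a small partner of NRF2, was at 17.4, 16.6 and 15.6 CPM with arsenite and 0.823, 1.69 and 1.44 CPM with H2O2 (log2 fold change 3.65 ± 0.14, adjusted p = 1.08e-14). *NFE2L2*, the gene of NRF2, was at 135.3, 147.7 and 137.9 CPM and 56.2, 53.9 and 54.6 CPM (log2 fold change 1.35 ± 0.04, adjusted p = 5.43e-18). *SRXN1*, which repairs overoxidised peroxiredoxins, went the other way at 16.6, 17.3 and 17.4 CPM with arsenite, 43.3, 41 and 38.4 CPM with H2O2 and 40.3, 38.8 and 39 CPM untreated. *SRXN1* differed by -1.26 ± 0.05 on the log2 scale (adjusted p = 1.87e-15). *GCLC* (-0.80 ± 0.05) and *GCLM* (-0.25 ± 0.04), the subunits of the enzyme that limits glutathione synthesis, and *TXNRD1* (-0.53 ± 0.03), thioredoxin reductase, were also higher with H2O2. *SLC7A11*, the cystine importer, was at 28.4, 32.4 and 29.5 CPM with arsenite, 29.5, 36.1 and 26.3 CPM with H2O2 and 14.9, 16.7 and 14 CPM untreated. The 6 oxidant libraries were all above the untreated ones and the difference between oxidants was -0.02 ± 0.10 (adjusted p = 0.893). The sign turned, to 0.15 with a GC offset and to 0.32 (adjusted p = 0.00156) with a length offset. *NQO1*, a quinone reductase, showed no call at 6.31, 6.33 and 6.38 CPM against 6.46, 6.78 and 5.98 CPM (adjusted p = 0.906).

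Antioxidant response elements, the NRF2 sites searched as TGACNNNGC and GCNNNGTCA, matched 13.2% of all genes in the table and 15.5% of the tested genes found in it. Matches lay on both sides: in *MAFF*, *MT2A*, *PPP1R15A* and *ZFAND2A*, which were higher with arsenite, and in *SESN1*, *GCLM* and *TXNRD1*, which were higher with H2O2. The last pair is printed because both belong to the NRF2 list:
GCLM (chr1:93909448-93909472, minus strand): cgatttctGCTTAGTCAttgtcttc
TXNRD1 (chr12:104215672-104215696, plus strand): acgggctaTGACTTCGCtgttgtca
*HMOX1* has no entry in the table.

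A list of peroxide-removing enzymes, their redox partners and regulators showed small differences in most cases. Of 20 tested, 8 were higher with arsenite, 8 higher with H2O2 and 4 not called, against 30.7% and 29.0% of all tested genes in the 2 directions. *CAT*, catalase, was at 41.1, 37.9 and 41.2 CPM with arsenite, 37.5, 36.4 and 38 CPM with H2O2 and 41.1, 44.7 and 38.9 CPM untreated (log2 difference 0.10 ± 0.05, adjusted p = 0.106). *PRDX1*, an abundant peroxiredoxin, was at 690.9, 699.9 and 719 CPM with arsenite and 880.1, 913.2 and 859.1 CPM with H2O2 (log2 fold change -0.33 ± 0.03, adjusted p = 2.98e-09). The 4 differences of 2-fold or more all favoured H2O2. *TXNIP*, the inhibitor of thioredoxin, stood at 3.46, 3.4 and 3.41 CPM with arsenite, 16.1, 16.7 and 15.6 CPM with H2O2 and 16.8, 16.4 and 16.1 CPM untreated. For *TXNIP* this was a log2 fold change of -2.24 ± 0.07 (adjusted p = 1.59e-17). *SESN1*, a sestrin that restrains mTORC1, was at 9.33, 11.9 and 10.2 CPM with arsenite, 34.6, 39 and 38.1 CPM with H2O2 and 31.2, 29.7 and 30.7 CPM untreated. *SESN1* differed by -1.81 ± 0.07 on the log2 scale (adjusted p = 1.04e-15). *GPX8* (-1.24), a glutathione peroxidase of the endoplasmic reticulum, and *GLRX2* (-1.03), a mitochondrial glutaredoxin, were the others. In *TXNIP* the H2O2 and untreated libraries overlapped and the arsenite libraries were all far below.

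Genes of the endoplasmic reticulum stress response were mostly lower with arsenite, although this response shares ATF4 and CHOP with the integrated stress response. Of 22 tested, 4 were higher with arsenite and 16 higher with H2O2, with a median of -0.29. *HSPA5*, the HSP70 of the endoplasmic reticulum, was at 188.2, 202.2 and 190.2 CPM with arsenite, 734.4, 702 and 731.8 CPM with H2O2 and 755.8, 722.5 and 751.6 CPM untreated. For *HSPA5* this was a log2 fold change of -1.90 ± 0.04 (adjusted p = 1.26e-21). *SEL1L* (-1.46), the scaffold of the ERAD ligase, and *DNAJB9* (-1.37), a cofactor of the HSPA5 protein, followed. *XBP1* was the exception at 2-fold, with 272.3, 284.2 and 280.6 CPM with arsenite and 123.5, 124.1 and 122.9 CPM with H2O2 (log2 fold change 1.18 ± 0.03, adjusted p = 2.57e-18). The sensor *ERN1*, whose product splices it, was at 0.82 ± 0.09. *ATF6* (0.13) and *HERPUD1* (0.36) were also higher with arsenite.

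**Figure D3:**
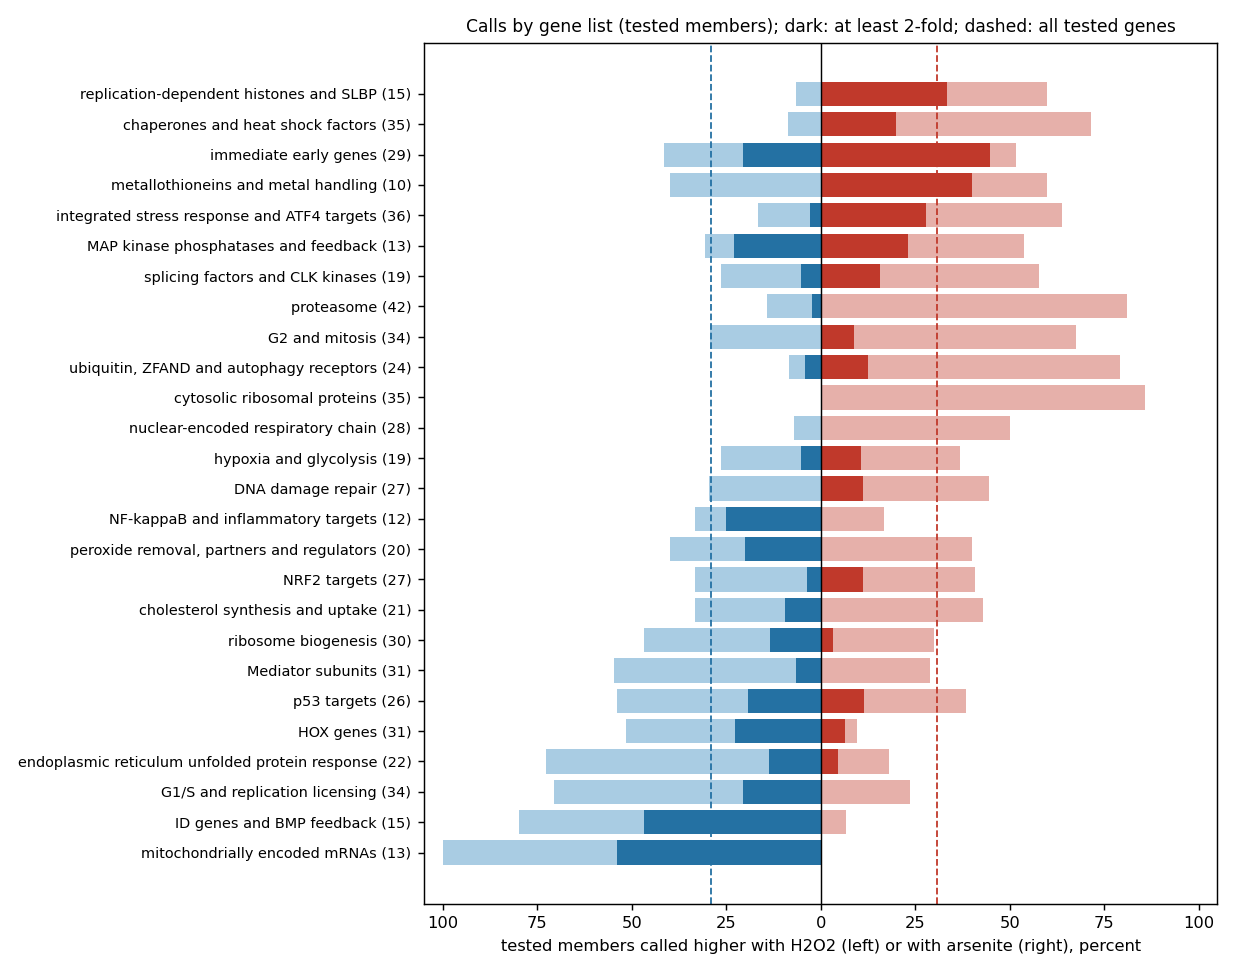
Share of the tested members of each of 26 gene lists called higher with arsenite (right, red) or with H2O2 (left, blue), in percent, with the number tested in parentheses. Dark parts mark differences of 2-fold or more and the dashed lines the shares over all tested genes (30.7% and 29.0%). Lists are ordered by their median log2 fold change, from histones and chaperones at the top to the mitochondrially encoded mRNAs, all of them higher with H2O2, at the bottom.

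Protein disposal genes leaned to arsenite by small amounts. Of 42 proteasome genes, 34 were higher with arsenite and 6 higher with H2O2, with a median of 0.29. The lead subunits were *PSMD7* (279, 289.5 and 287.2 CPM against 165.3, 158.9 and 160.5 CPM with H2O2, log2 fold change 0.82 ± 0.03, adjusted p = 1.48e-15), *PSMD13* (0.79) and *PSMC2* (0.79). *NFE2L1*, the gene of the factor NRF1 that drives proteasome subunit transcription, was at 53, 55.6 and 54.7 CPM with arsenite and 124.9, 128.1 and 130.5 CPM with H2O2 (log2 fold change -1.23 ± 0.04, adjusted p = 7.15e-18). Among 24 ubiquitin, ZFAND and autophagy genes 19 were higher with arsenite and 2 with H2O2. *ZFAND2A*, the arsenite-inducible proteasome-associated protein AIRAP, stood at 127.4, 118.7 and 120.6 CPM with arsenite, 7.96, 8.81 and 8.15 CPM with H2O2 and 6.92, 8.88 and 8.34 CPM untreated. *ZFAND2A* differed by 3.88 ± 0.07 on the log2 scale (adjusted p = 8.07e-22). *SQSTM1*, the autophagy receptor p62, was higher with arsenite (0.60 ± 0.03) and *UBQLN2*, a shuttle factor, higher with H2O2 (-1.18 ± 0.06). *TXNL1* reads from the disrupted gene were 2.18-fold higher with arsenite (log2 fold change 1.12 ± 0.05, adjusted p = 2.67e-15).

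The cell cycle and DNA damage genes included those in which the H2O2 mean was the one farther from untreated. *KIF20A*, a mitotic kinesin, was at 102.2, 109.5 and 104.6 CPM with arsenite, 56.8, 56.5 and 60.8 CPM with H2O2 and 117, 110 and 110.4 CPM untreated. For *KIF20A* this was a log2 fold change of 0.86 ± 0.04 (adjusted p = 2.82e-14). *PLK1*, the mitotic kinase, was at 269.2, 253.8 and 249.8, 146.9, 144.8 and 160.5 and 258.1, 254.2 and 251.5 CPM in the same order (log2 fold change 0.77 ± 0.04, adjusted p = 8.13e-14). *CDC20* (0.60 ± 0.03) and *UBE2S* (0.88 ± 0.09), which activate and extend the chains of the anaphase-promoting complex, and *CENPE* (0.39 ± 0.07), a kinetochore motor, were also lowest with H2O2. These 5 were the genes farthest below untreated with H2O2 among those with arsenite near untreated (within 0.25 log2). In the complemented lines *UBE2S* was not called in WT (adjusted p = 0.0708) or D162R R234D cells (adjusted p = 0.083). Of 34 genes of G2 and mitosis, 23 were higher with arsenite and 10 higher with H2O2. *PIF1*, a DNA helicase, had the largest difference at 8.05, 8.44 and 9.06 CPM with arsenite, 1.13, 0.778 and 0.653 CPM with H2O2 and 1.62, 2.19 and 2.2 CPM untreated. *PIF1* differed by 3.32 ± 0.16 on the log2 scale (adjusted p = 1.39e-14). Its arsenite libraries lay above and its H2O2 libraries below every untreated library. *CCNB1*, cyclin B1, was lower than untreated with both oxidants, at 184.4, 185.4 and 186.2 CPM with arsenite, 229.2, 230.9 and 228 CPM with H2O2 and 358.9, 353.1 and 340.6 CPM untreated. Of the pair it was higher with H2O2 (log2 fold change -0.31 ± 0.03, adjusted p = 1.95e-08).

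Genes of G1/S and replication took the other direction: 24 of 34 were higher with H2O2 and 8 higher with arsenite, with a median of -0.37. *PCNA*, the DNA polymerase clamp, was at 108.5, 106.2 and 107.8 CPM with arsenite, 270.6, 277.5 and 269.6 CPM with H2O2 and 227.5, 222.3 and 219.3 CPM untreated. For *PCNA* this was a log2 fold change of -1.34 ± 0.03 (adjusted p = 1.77e-19). *CLSPN*, the checkpoint adaptor claspin, was at 43.9, 48.1 and 47.9 CPM, 138.3, 129.6 and 124.1 CPM and 92.1, 97.4 and 98.6 CPM in this order (log2 fold change -1.48 ± 0.05, adjusted p = 1.08e-17). In both genes the H2O2 libraries were above and the arsenite libraries below all 3 untreated libraries. *E2F2* (-1.38), *CCND2* (-1.33) and *CCNE2* (-1.24) had the same order. *BRCA1*, a homologous recombination gene, was at 58.4, 65.8 and 61.7 CPM with arsenite, 92, 95.6 and 89.4 CPM with H2O2 and 65.7, 64.7 and 67.9 CPM untreated. *BRCA1* differed by -0.57 ± 0.04 on the log2 scale (adjusted p = 1.12e-10). It was among the 5 genes farthest above untreated with H2O2 whose arsenite mean was near untreated. Others of the 5 were *LRRC8E* (-0.77), a subunit of the volume-regulated anion channel, *ARHGAP42* (-0.44), a GTPase-activating protein, and *NBPF19* (-0.63), a repeat-rich family member whose reads may be shared with its copies. The *ARHGAP42* and *NBPF19* calls were lost with a length offset (adjusted p = 0.102 and 0.356). In the fit of all 36 libraries *ARHGAP42* was not called in vector cells (adjusted p = 0.121) or in any complemented line (adjusted p = 0.244 to 0.356). *NBPF19* was not called in D162R R234D cells (adjusted p = 0.273).

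Targets of p53 were divided, 10 of 26 higher with arsenite and 14 higher with H2O2, with a median of -0.23 that became 0.16 over the members that share no exon with another gene. HEK 293T cells carry SV40 large T antigen, which binds p53. *PHLDA3*, an inhibitor of AKT, was at 4.05, 4.99 and 5.94 CPM with arsenite, 16.5, 17.9 and 19.4 CPM with H2O2 and 8.81, 9.26 and 8.88 CPM untreated. For *PHLDA3* this was a log2 fold change of -1.82 ± 0.10 (adjusted p = 3e-13). The untreated libraries lay between the other groups. *MDM2*, the ubiquitin ligase of p53, was at 52.1, 66.3 and 61.1, 139.3, 134.4 and 130.2 and 112.9, 111.2 and 107.6 CPM in the same order (log2 fold change -1.16 ± 0.06, adjusted p = 6.57e-10). *ZMAT3* (-1.25) and *TP53INP1* (-1.09) had the same order. *CDKN1A*, the cyclin-dependent kinase inhibitor p21, was above untreated with both, at 12.9, 13.8 and 13.4 CPM with arsenite, 13.6, 17.2 and 17.9 CPM with H2O2 and 7.2, 7.6 and 8.25 CPM untreated. *CDKN1A* differed by -0.27 ± 0.08 on the log2 scale (adjusted p = 0.00766). The call was lost without H2O2 replicate 3 (adjusted p = 0.0754). *PPM1D*, the phosphatase that turns p53 signalling off, was at 113.2, 121.2 and 118.6 CPM with arsenite against 44.7, 43.7 and 45 CPM with H2O2 (log2 fold change 1.40 ± 0.04, adjusted p = 2.78e-18), and *PLK3* (1.18) was on the same side. Of 27 repair genes 12 were higher with arsenite and 8 with H2O2, the latter a share close to the 29.0% of all tested genes. *GADD45B*, a stress sensor that activates p38 and JNK, was at 90.8, 88.9 and 84.4 CPM with arsenite and 7.2, 7.22 and 7.05 CPM with H2O2 (log2 fold change 3.62 ± 0.06, adjusted p = 1.15e-22). *BRCA2* (-0.92) and *MSH6* (-0.69) were on the H2O2 side.

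Beside *PIF1* and *PHLDA3*, other genes lay on opposite sides of untreated. *TET1*, which oxidises 5-methylcytosine, was at 13.4, 15.6 and 13.7 CPM with arsenite, 34.6, 38.4 and 36.3 CPM with H2O2 and 20.8, 22.9 and 26.2 CPM untreated. For *TET1* this was a log2 fold change of -1.35 ± 0.08 (adjusted p = 1.36e-12). *SDC1*, a heparan sulfate proteoglycan, was at 4.55, 3.7 and 3.47 CPM, 10.1, 10.3 and 10.4 CPM and 7.07, 5.79 and 6.74 CPM in this order (log2 fold change -1.42 ± 0.10, adjusted p = 2.11e-11). *AHNAK*, a giant scaffold protein, was at 17.4, 19.4 and 18.5 CPM with arsenite and 38.8, 66.6 and 39.9 CPM with H2O2 (log2 fold change -1.38 ± 0.24, adjusted p = 0.0021). H2O2 replicate 2, the library with the intestinal markers, was the highest. *CPT1B* (1.76), the muscle form of carnitine palmitoyltransferase, was above untreated with arsenite and below with H2O2. The same order was seen for *GOLGA8B* (1.76) and *AGAP5* (2.88), members of families of near-identical copies whose values are uncertain. *GCM1*, a placental transcription factor, met the rule by its means alone. It was at 14.9, 17.5 and 14.5 CPM with arsenite, 0.0823, 0.0648 and 0 CPM with H2O2 and 0.0838, 0.0683 and 0.13 CPM untreated (log2 fold change 8.31 ± 0.23, adjusted p = 1.62e-18). Its H2O2 and untreated libraries overlapped at very few reads, so it cannot be placed below untreated with H2O2, and it reached 5 CPM through the arsenite libraries only. A further gene met the same rule only through a second annotated copy that is identical in sequence to the first. Its value is uncertain, its call was lost in several of the alternatives tried, and it is not described.

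The genes below had the largest differences in favour of H2O2 among protein-coding genes at 5 CPM or more whose groups did not overlap. *GAS1* (chr9:86944362-86947506, a single-exon gene), a growth-arrest protein and hedgehog co-receptor, was at 2.22, 1.85 and 1.63 CPM with arsenite, 18.4, 18.6 and 18.6 CPM with H2O2 and 17.6, 17.5 and 17.5 CPM untreated. *GAS1* differed by -3.33 ± 0.09 on the log2 scale (adjusted p = 3.65e-19). Its level was 10.1-fold higher with H2O2. *ID2* (chr2:8678845-8684461), an inhibitor of helix-loop-helix factors downstream of BMP, was at 17.5, 16 and 15.3, 141.5, 140 and 143.1 and 152.1, 146 and 148.5 CPM. For *ID2* this was a log2 fold change of -3.14 ± 0.05 (adjusted p = 1.07e-23). *MED9* (chr17:17476994-17493221), a Mediator subunit, stood at 3.15, 3 and 2.98, 28.3, 25.2 and 27.2 and 25.2, 27.7 and 25.9 CPM (log2 fold change -3.15 ± 0.07, adjusted p = 4.73e-20). *MFSD5*, a transporter-like membrane protein, was at 2.48, 3.01 and 3.03 CPM, 26.2, 28.9 and 28.8 CPM and 26.5, 24.5 and 25.7 CPM (log2 fold change -3.27 ± 0.08, adjusted p = 6.54e-20). The other leading genes on this side were *BLOC1S3* (-2.96) and *HPS6* (-2.90), from complexes that build lysosome-related organelles, and *RASL11B* (-2.89), a small GTPase. They also held *EFNA4* (-2.89), an ephrin ligand, and *SOX21* (-2.86) and *OTX1* (-2.86), transcription factors of neural development. The libraries of these 10 genes did not overlap between the oxidants, which the rule that named them required.

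The ID and BMP feedback genes as a group were higher with H2O2 in 12 of 15, with 1 higher with arsenite, 7 of the 12 by 2-fold or more and a median of -0.79. *ID1* was at 6.68, 6.43 and 5.63 CPM with arsenite and 14.8, 12.6 and 14.6 CPM with H2O2 (log2 fold change -1.17 ± 0.10, adjusted p = 4.32e-10), and *ID3* (-0.79 ± 0.06) and *ID4* (-1.90 ± 0.06) accompanied it. The BMP antagonists *NOG* (-3.19, at most 0.105 CPM with arsenite) and *BAMBI* (-1.92) and the ligand *BMP4* (-1.24) were on the same side. Of 31 HOX genes, which pattern the body axis, 16 were higher with H2O2 and 3 higher with arsenite. *HOXA13* had the largest difference, at 4.87, 6.42 and 5.89 CPM with arsenite, 33.5, 32.5 and 35.9 CPM with H2O2 and 32.6, 30.9 and 33.1 CPM untreated. *HOXA13* differed by -2.54 ± 0.07 on the log2 scale (adjusted p = 3.27e-18). *HOXA2* (1.46) and *HOXC4* (1.09) were higher with arsenite. Of 12 NF-κB and inflammatory targets, 4 were higher with H2O2, 2 higher with arsenite and 6 not called. The share higher with H2O2 was close to the 29.0% of all tested genes. The inhibitor *NFKBIA* was at 5.89, 5.88 and 6.07 CPM with arsenite and 20.6, 18 and 20.1 CPM with H2O2 (log2 fold change -1.72 ± 0.07, adjusted p = 7.61e-16), and *TNFAIP3* (-1.42), another inhibitor, was on the same side. Of 31 Mediator subunits 17 were higher with H2O2 and 9 higher with arsenite. The median of -0.20 was -0.02 with a GC offset and 0.04 over members without exon overlap, so no direction is given for this list.

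The structure of the genes differed between the directions. Protein-coding genes called at 2-fold or more higher with H2O2 (1109) had a median of 4 exons in their longest annotated transcript and 13.4% had a single exon. Those higher with arsenite (957) had 9 exons and 3.97%, and all 14804 tested had 8 and 3.78%. Long non-coding RNAs made up 26.9% of the genes called at 2-fold higher with arsenite, 21.9% of those higher with H2O2 and 21.8% of all tested. These are descriptions with no test. Exons of 57% of the tested genes overlap those of another gene, and since the use of strand in counting is not given in the sources used here, reads of such pairs cannot be told apart.

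Mitochondrially encoded mRNAs were higher with H2O2 without exception: 13 of 13 were called, 7 by 2-fold or more, with a median of -1.05. *MT-CO3*, a subunit of cytochrome oxidase, was at 200.7, 189.4 and 203.7 CPM with arsenite, 820.1, 727.7 and 751.6 CPM with H2O2 and 780.9, 715.6 and 751.2 CPM untreated. For *MT-CO3* this was a log2 fold change of -1.95 ± 0.04 (adjusted p = 3.54e-19). *MT-ATP8* (-2.09), *MT-ATP6* (-1.71) and *MT-ND3* (-1.64) followed, with *MT-ND4* (-0.31) the least different. All mitochondrial transcripts together, ribosomal RNA included, took 0.733% to 0.761% of the counts with arsenite, 0.844% to 1.01% with H2O2 and 0.801% to 0.867% without treatment. The nuclear-encoded subunits of the same complexes did not share the direction: 14 of 28 were higher with arsenite and 2 higher with H2O2, none by 2-fold, as with *NDUFV1* (0.38 ± 0.03). Cytosolic ribosomal protein genes were higher with arsenite in 30 of 35 and with H2O2 in 0, by small amounts (median 0.22). *RPL3* had the largest difference, at 3168.4, 3077.9 and 3257.6 CPM against 1811.3, 1910.9 and 1906.7 CPM (log2 fold change 0.76 ± 0.03, adjusted p = 9.96e-16). Of 30 genes of ribosome biogenesis, 9 were higher with arsenite, close to the 30.7% of all tested genes, and 14 with H2O2. *POLR1A*, the largest subunit of RNA polymerase I, was at 82, 84.7 and 80.3 CPM with arsenite and 228.2, 270.1 and 241.6 CPM with H2O2 (log2 fold change -1.58 ± 0.05, adjusted p = 6.56e-15). *NOP58*, a snoRNA-binding protein, was at 587.6, 587.5 and 599.3 CPM and 242.9, 212 and 219.9 CPM (log2 fold change 1.39 ± 0.04, adjusted p = 4.08e-18).

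Splicing regulators were strongly divided within 1 family of kinases. *CLK1*, which phosphorylates SR proteins, was at 147.5, 149.4 and 147.7 CPM with arsenite, 29.4, 24.6 and 23.1 CPM with H2O2 and 27.8, 32.4 and 29.2 CPM untreated. *CLK1* differed by 2.53 ± 0.07 on the log2 scale (adjusted p = 1.5e-13). *CLK4* (1.53) was on the same side. *CLK2* was at 13.7, 14.8 and 15.6, 55.8, 59.2 and 57.3 and 51.4, 55.7 and 55.1 CPM in the same order (log2 fold change -1.96 ± 0.05, adjusted p = 8.5e-19), the reverse direction. Among the SR proteins *SRSF5* led at 262.4, 260.6 and 272.8 CPM with arsenite and 81.2, 73.5 and 78.1 CPM with H2O2 (log2 fold change 1.77 ± 0.04, adjusted p = 4.12e-20), with *SRSF1* (-0.44) on the H2O2 side. In all, 11 of 19 members of the list were higher with arsenite and 5 with H2O2, the latter a share close to the 29.0% of all tested genes. Of 15 tested genes on the replication-dependent histone list, 9 histone genes were higher with arsenite and 5 were not called. The remaining member, the histone mRNA-binding factor *SLBP* (-0.46), was higher with H2O2. The leading histones were at low levels, with *H1-4* at 3.05, 2.14 and 2.98 CPM with arsenite and 0.165, 0.454 and 0.231 CPM with H2O2 (log2 fold change 3.26 ± 0.26, adjusted p = 2e-10). Histone genes resemble each other in sequence.

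Cholesterol and hypoxia genes showed no common direction. In the first list 9 of 21 were higher with arsenite, such as *HMGCS1* (0.40 ± 0.04), an enzyme of sterol synthesis, and 7 higher with H2O2. The SREBP retention factor *INSIG1* was at 34.1, 36.2 and 36.6 CPM with arsenite and 89.6, 86.1 and 92.2 CPM with H2O2 (log2 fold change -1.32 ± 0.05, adjusted p = 9.97e-17), with *INSIG2* (-1.43) beside it. In the second, 7 of 19 were higher with arsenite and 5 with H2O2. Over all tested genes the shares were 30.7% and 29.0%, and both lists lay close to the latter on the H2O2 side. *ENO2* (1.17), a glycolytic enzyme, was on the arsenite side. *EGLN3*, a prolyl hydroxylase that inactivates HIF, stood at 5.26, 5.43 and 5.49 CPM with arsenite and 18.4, 18 and 18.8 CPM with H2O2 (log2 fold change -1.76 ± 0.07, adjusted p = 5.76e-16).

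A further 4870 genes had under 10 counts over the 3 untreated libraries but at least 10 over all 9. Such a gene qualified through the oxidant libraries in which it had reads, and arsenite replicates 2 and 3, at 127848785 and 114679200 counts, were the deepest of the 9. The 11.7% of them called higher with arsenite and the 1.40% higher with H2O2 are therefore not read as a direction. *HSPA7*, a pseudogene next to and highly similar to *HSPA6*, held 3724, 5450 and 6385 reads with arsenite and 0, 5 and 1 with H2O2, and these reads may belong to *HSPA6*. *BTLA*, an immune inhibitory receptor, held 117, 395 and 275 reads with arsenite and 0, 2 and 2 with H2O2. *TAGAP*, a GTPase-activating protein of T cells, held 99, 299 and 313 reads against 0, 3 and 0. *CRYAB*, a small heat shock protein of the chaperone list, held 104, 170 and 255 reads with arsenite and 0, 10 and 0 with H2O2. *MUC12*, an intestinal mucin, held 0, 301 and 32 reads with H2O2 and 0, 6 and 3 with arsenite and was not called (adjusted p = 0.103). It is 1 of the 11 intestinal markers. *MUC2*, another of them, held 0, 211 and 49 reads with H2O2 and 2, 0 and 0 with arsenite. It passed the count minimum through its H2O2 reads, so its call (adjusted p = 0.0265) is not read as a difference.

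The same contrast in the complemented lines gave similar counts. In the fit of all 36 libraries, 10589 genes were called in vector cells, 9873 genes (43.9%) were called in WT, 10561 (47.0%) in D162R R234D cells and 10202 (45.4%) in SxxS cells. Of the 3413 genes called at 2-fold or more in vector cells, 81.3%, 84.6% and 83.7% were called in the same direction in these lines. Across 15705 genes at 1 CPM or more the log2 fold changes correlated with those in vector cells at Pearson's r of 0.955, 0.969 and 0.972, a description over genes, which are not independent replicates. *HSPA6* was at 8.09 in SxxS cells, 9.28 in WT and 9.44 in D162R R234D cells against 9.70 in the vector libraries alone, and its difference between lines was not called (adjusted p = 0.683).

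A difference between lines in the arsenite to H2O2 contrast was called for 65 of the 22486 genes (0.289%). With single libraries left out the count ran from 28, without SxxS arsenite replicate 1, to 177, without WT arsenite replicate 1. *TXNL1* had the smallest p of these (adjusted p = 0.000307). In that fit its log2 fold change was 1.14 in vector cells, 0.42 in D162R R234D cells, 0.69 in SxxS cells and 0.86 in WT cells, where the complemented lines add reads of the introduced cDNA. Others were *BAG3*, from 3.63 in WT to 4.07 in D162R R234D cells (adjusted p = 0.0211), and *JUN*, from 2.63 in WT to 3.23 in SxxS cells (adjusted p = 0.0134). *SESN2* ranged from 2.72 in WT to 3.09 in SxxS cells (adjusted p = 0.0342) and *PPP1R15A* from 2.49 in WT to 3.02 in D162R R234D cells (adjusted p = 0.0459). These 4 genes had the same direction in every line. Others of the 65, such as *GARIN5A* and *CBR1-AS1*, changed sign between lines and are described further on. A pair of WT libraries, arsenite replicate 1 and H2O2 replicate 2, stood apart from their groups in an earlier analysis of these data. Without them 368 genes (1.64%) were called, 64 of the 65 among them.

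**Figure D4:**
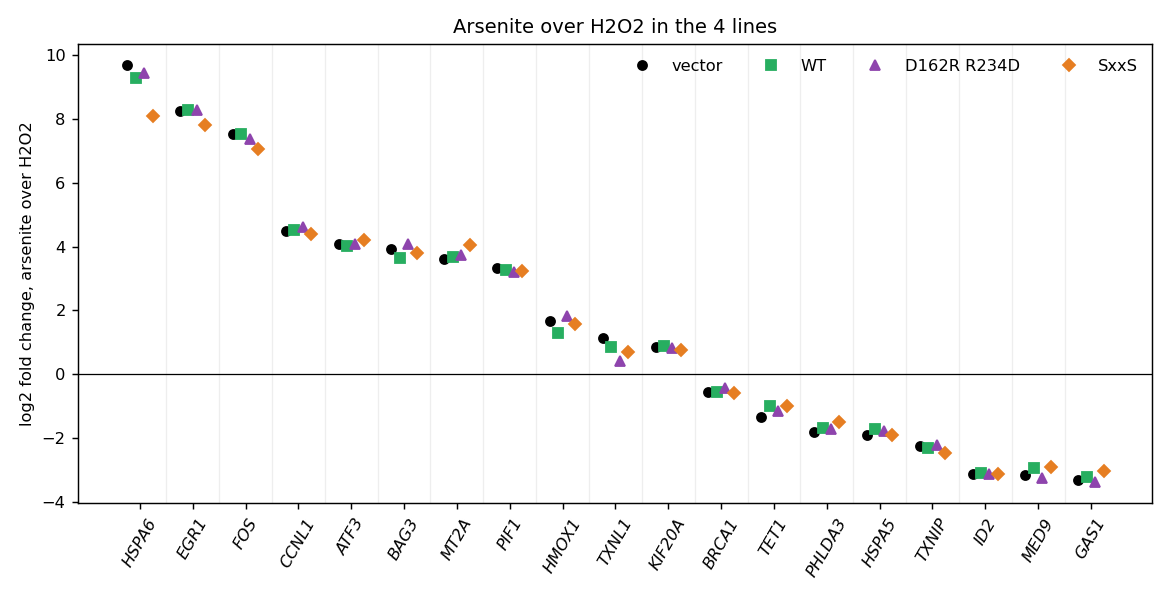
Fitted log2 fold change of arsenite over H2O2 (y axis) for 19 genes in the 4 lines, 1 point per line. The vector values come from the 9 vector libraries and the others from all 36. Every gene has the same sign in the 4 lines, and *TXNL1* is lowest in D162R R234D cells.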

How the data were processed

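Messenger RNA libraries were prepared with a strand-specific kit from total RNA and sequenced as 100-base paired ends on a DNBseq platform. The authors aligned reads to GRCh38 with qAlign (QuasR) and deposited raw counts per gene, not normalized and with replicates not pooled. The annotation release, the use of strand and the treatment of reads on several genes are not given in the sources used here. All 36 count columns were mapped to samples by their labels.

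From these counts, the 9 vector libraries were fitted in R 4.3.3 with limma 3.58.1 and edgeR 4.0.16 (TMM scaling, 1 mean per group, robust quasi-likelihood test), for the 22486 genes whose counts in the untreated libraries summed to 10 or more, the study's filter. The contrast was arsenite minus H2O2, with Benjamini-Hochberg adjustment over these genes and calls at an adjusted p under 0.05. SE is the log2 fold change divided by the square root of F. Levels are CPM on TMM-scaled library sizes. Differences between lines were fitted on all 36 libraries as an interaction, without a block for replicate number. Gene symbols, positions and exon overlaps came from GENCODE release 44 on GRCh38, which may not be the release the authors used, and matched 61415 of 61587 identifiers.

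Replicates were checked for duplicate libraries, and none were found. Genes were named by rule: the 10 largest differences in each direction among called protein-coding genes at 5 CPM or more whose groups did not overlap, the 5 farthest above and below untreated with H2O2 where arsenite was within 0.25 log2 of untreated, the 5 in each direction lying on opposite sides of untreated, the 5 highest of the genes below the count minimum, up to 4 called members of each list and a fixed set of stress genes. Other list members are given as log2 fold changes. Some genes that these rules name are not reported here. The members and lists were chosen with earlier results of these data known. *CCNL1*, which is on no list, was named by the first of these rules. *IER5* and other list members shown for their size were chosen after their values were seen. The fit was tested on simulated data with 200 changed genes, of which it recovered 165. It made 14 false calls, a share of 0.0782 of its calls, above the 0.05 of the threshold. Alternatives covered other scalings, DESeq2 1.42.0, other filters, GC and length offsets, a replicate block, halved counts, exon overlap and each library left out.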

Additional observations from a re-analysis of the deposited data

Results flagged for a closer look

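The difference between arsenite and H2O2 differed between the 4 lines for 65 genes by the interaction test (0.289% of 22486, and 1352 at an unadjusted p under 0.05), of which 47 were also called between the oxidants in vector cells. After *TXNL1*, the smallest p-values belonged mostly to long non-coding and antisense genes that were higher with arsenite in vector and SxxS cells and lower with arsenite in WT and D162R R234D cells. The lncRNA ENSG00000253806 had log2 fold changes of 1.06 in vector cells, -1.69 in WT cells, -1.69 in D162R R234D cells and 2.56 in SxxS cells (edgeR adjusted p = 0.00048), at a mean level of 0.397 CPM. *GARIN5A* had 0.55, -1.02, -1.05 and 0.97 in the same order (adjusted p = 0.00268) and *CBR1-AS1* 0.24, -0.39, -0.34 and 0.42 (adjusted p = 0.00395). *MAT2A*, the enzyme that makes S-adenosylmethionine, was lower with arsenite in every line, by log2 fold changes of -1.82, -1.46, -2.11 and -1.52 (adjusted p = 0.0111).

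Reads of 11 intestinal epithelium markers lay outside the 22486 genes of the main test, though several of the markers, among them *MUC2* and *MUC12*, were tested with the genes below the count minimum. In vector cells they summed to 9, 12 and 12 in arsenite replicates 1 to 3, to 1185 in H2O2 replicate 2 and to 121 in H2O2 replicate 3, with 0 in H2O2 replicate 1 and 6, 5 and 1 in the untreated replicates. Among the complemented lines the highest sums were 977 in WT untreated replicate 3, 448 in SxxS H2O2 replicate 1 and 351 in D162R R234D untreated replicate 1. HEK293 markers were present in all vector libraries (679 CPM or more in sum), and the part of the intestinal reads in the results was not tested beyond leaving out H2O2 replicate 2.

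Of the 4870 tested genes below the count minimum in untreated cells, 570 (11.7%) were called higher with arsenite and 68 (1.40%) higher with H2O2. These calls are not read as a direction. These genes qualified through the oxidant libraries in which they had reads, and arsenite replicates 2 and 3 were the deepest, and the part of the filter and of depth in these counts was not tested.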

How the results depend on the processing

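With 3 libraries per group the spread is estimated from few samples, depth varied from 45758737 to 127848785 counts, and overlapping genes cannot be separated. The count of 13433 genes became 5546 (2808 higher with arsenite, 2738 with H2O2) over the 9623 genes without exon overlap and 3413 (1779 and 1634) with a 2-fold minimum, both fewer by construction. Leaving out each vector library in turn gave 12405 to 13426 calls (6274 to 6935 higher with arsenite, 6131 to 6491 with H2O2), lowest without arsenite replicate 3. All 36 libraries gave 10589 and DESeq2 12842. Which direction held more calls depended on the processing. Higher with arsenite and with H2O2 were 6257 and 6585 by DESeq2, 6597 and 6743 with DESeq2 size factors, and 7467 and 6200 with a GC offset. The replicate numbers did not pair the libraries (correlations of -0.01, 0.18 and -0.04 between arsenite and H2O2 deviations), and a fit with the replicate block gave 13467 calls, 13268 of them shared. For the 167 named values, 3887 of 3936 refits kept direction and side of the threshold, 31 fell short of it, 8 passed it and 10 turned sign. The sign changes were *NQO1* (0 with all 36 libraries, 0.06 with a GC offset with or without the block, from -0.06 to 0.03 with single libraries left out), *SLC7A11* (0.15 with a GC offset, 0.16 with GC and block, 0.32 with a length offset, from -0.12 to 0.11 with single libraries left out) and *GDF15* (from -0.41 to 0.05 with single libraries left out). The cause was not tested. *H1-3* lost its call without H2O2 replicate 1 or 2 or arsenite replicate 3 (adjusted p = 0.0689, 0.0643 and 0.0863). List medians moved by 0.1 or more in 25 of 624 refits.

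The 65 genes that differed between lines became 216 with DESeq2 and 368 without the outlying WT libraries, and 28 to 177 when single libraries were left out, lowest without SxxS arsenite replicate 1 and highest without WT arsenite replicate 1. Vector against WT gave 0 (1474 at an unadjusted p under 0.05), and 80 with DESeq2, 92 without the outlying libraries, 12 over genes at 5 CPM or more (an alternative chosen after seeing the data) and 0 to 86 when single libraries were left out. Vector against D162R R234D gave 1, and 8, 24 and 1 to 5 under DESeq2, without the outlying libraries and with single libraries left out. Vector against SxxS gave 0 (603 unadjusted), and 2 with DESeq2, 1 without the outlying libraries, 1 at 5 CPM or more and 0 to 1 with single libraries left out. Leaving out single libraries moved the calls within WT cells between 8555 and 12724, within D162R R234D cells between 9360 and 11810 and within SxxS cells between 8962 and 11430.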
